A study of Mus musculus with 8 samples.

Results

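Cell cycle genes and inhibitors of the cyclin-dependent kinases (CDKs) were examined in mouse neuro2a (N2a) cells with knockdown of Grp94. The members were 56 gene symbols named by their function, which are 55 genes because Cdc2a is an older name of Cdk1, and a gene was taken wherever its symbol stood in a row of the deposited table, alone or beside others. Of these, 12 genes had a row among the 2395 transcript clusters of the table, and 43 had none. A transcript cluster is the unit that the array reports, a set of probes along the exons of one gene. Among the 12 genes, 9 were lower in the knockdown than with the empty vector and 3 were higher, with the row of Cdk4 among the lower, although it lies on the strand of another gene. Those that differed by more than 1.3-fold were Cdkn1a, an inhibitor of CDKs, and Ccng2, an atypical cyclin, both lower. Of all transcript clusters in the table, 59.9% were lower and 16.1% were lower past 1.3-fold, so the members followed the table as a whole. With the median difference of all transcript clusters subtracted, 7 members were lower and 5 higher. Past 1.3-fold, 2 were then lower and 2 higher.

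N2a is a mouse neuroblastoma line that divides in culture and serves in many neuronal studies. By the labels, 4 arrays held RNA of the Vector group, which the design text of the series describes as cells with an empty vector and which is so called here, and 4 that of cells with knockdown of Grp94, a chaperone of the endoplasmic reticulum encoded by Hsp90b1, and all cells were of this line and were transfected. The knockdown vectors, delivered by lipofection, express an artificial microRNA together with a green fluorescent protein. The methods name several Grp94 constructs and, as controls, an empty vector and a vector for a non-targeting microRNA, the labels do not tell which array had which, and no sorting of transfected N2a cells is described. The table gives 1 value per group and none per array, so no value here carries a replicate error, and no test was run. Nothing in the labels says whether the 4 arrays of a group came from separate cultures.

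Progress through the cell cycle is driven by CDKs, which act only when bound to a cyclin. D-type cyclins with Cdk4 or Cdk6 and E-type cyclins with Cdk2 carry a cell from the first gap phase (G1) into DNA synthesis (S phase), while A- and B-type cyclins with Cdk1 act from S phase to mitosis. CDK inhibitors of the Cip/Kip family (Cdkn1a, Cdkn1b and Cdkn1c) bind cyclin-CDK complexes, and those of the INK4 family (such as Cdkn2c) bind Cdk4 and Cdk6. Transcription of genes for S phase is controlled largely by E2F factors, and that of many mitotic genes by promoters that hold CCAAT boxes, the sites of NF-Y, and the cell cycle homology region.

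The table keeps only transcript clusters that passed the authors' limit on the adjusted p-value, since the highest q-value in it was 0.01. A member without a row therefore has no value here, which does not show that it was unchanged, and a member with a row had already been selected for a difference. Both group values are log2 values centred by the authors row by row, so the level of expression is lost and they cannot be compared between genes. Hsp90b1, the target of the knockdown, had a log2 difference of -1.52 (knockdown minus empty vector), a 2.87-fold lower value. All differences below are of this kind. The RNA came from whole cultures, so fewer cells in a phase of the cycle and less RNA of a gene per cell cannot be told apart.

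The share of members with a row was 21.8%. For orientation, 10.3% of the protein-coding genes of the RefSeq gene table of GRCm38 (2255 of 21896) had a row, but that number includes genes that N2a cells do not express, so nothing is read from the gap. Of all transcript clusters in the table, 59.9% were lower, beside 9 of the 12 member genes. Past 1.3-fold, 16.1% of all transcript clusters were lower and 6.26% were higher, beside 2 and 0 of the 12 member genes, or 2 and 2 after subtraction of the median difference of all transcript clusters. The median log2 difference was -0.17 over the 12 member genes and -0.16 over all transcript clusters. The zero point of the log2 scale is not settled by the table, and where subtraction of this median of -0.16 changes a direction or a call, the value is given beside the result.

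**Figure D1:**
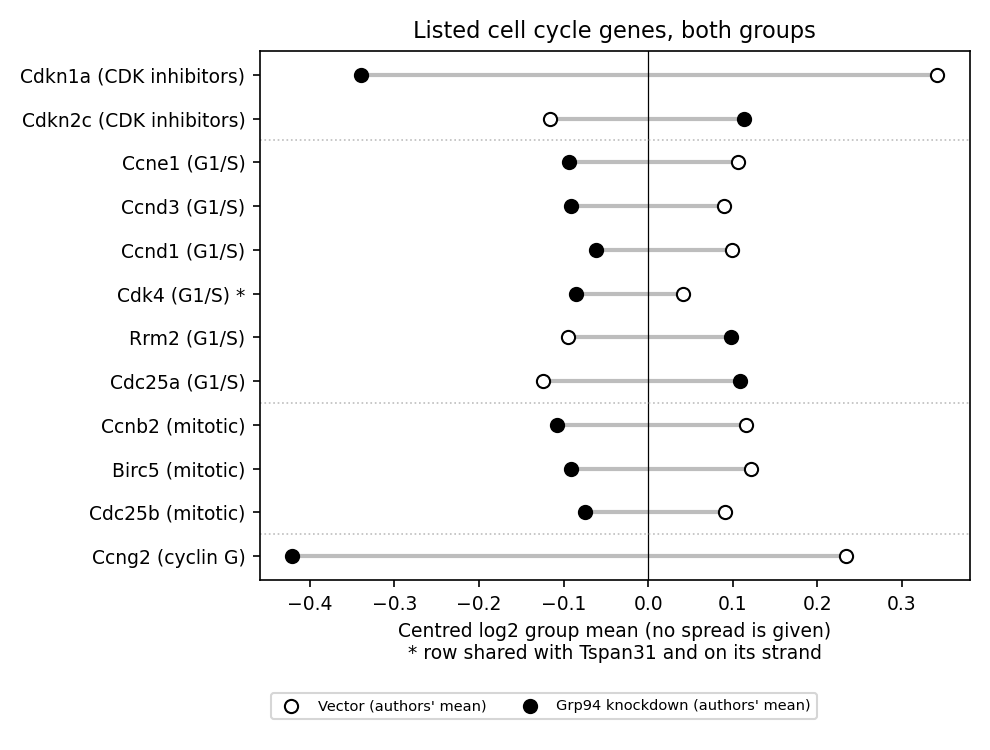
Centred log2 group means of the authors for the 12 member genes with a row (x axis), with open circles for the empty vector, filled circles for Grp94 knockdown and dotted lines between roles. The gap is widest for Cdkn1a (-0.68) and Ccng2 (-0.65), and the filled circle lies to the right for Cdkn2c, Rrm2 and Cdc25a.

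CDK inhibitors were the first group considered. Of 4 genes, Cdkn1a and Cdkn2c had a row, while Cdkn1b and Cdkn1c had none, and the pair with a row differed in opposite directions. Cdkn1a, the Cip/Kip inhibitor that p53 induces and that holds cells before S phase, had a centred log2 mean of 0.34 with the empty vector and -0.34 in the knockdown. Its difference of -0.68, or 1.60-fold, was the largest of all members in either direction, and 99 of the 2395 transcript clusters had a larger absolute difference. Its transcript cluster has 30 probes and lies on the plus strand of chromosome 17 from 29230720 to 29237667, as the table gives it (the genome build of the table is not given in the sources used here, and this holds for all positions of transcript clusters). Cdkn2c, the INK4 inhibitor, had a mean of -0.12 with the empty vector and 0.11 in the knockdown. Its difference was 0.23, or 1.17-fold higher, from 25 probes on the minus strand of chromosome 4 from 109333481 to 109338280. The absolute difference of Cdkn2c was exceeded by 1374 transcript clusters. After subtraction of the median of all transcript clusters, Cdkn2c was at 0.39, past 1.3-fold, and Cdkn1a at -0.52. With 1 gene on each side, the median of -0.23 for this group, or -0.062 after the subtraction, describes neither.

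For both inhibitors, the window at the most upstream start is printed beside these opposite differences. Each promoter below runs 5′ to 3′ from 250 bases before to 50 bases after the most upstream start of the gene in RefSeq (build GRCm38.p6). Capitals mark 3 kinds of letters on either strand, which are the CCAAT box (CCAAT), the cell cycle homology region (TTTGAA) and E2F letters (TTTCCCGC, TTTGGCGC, TTCCCGCC or TTGGCGCC, which can overlap each other). Neither the window of Cdkn1a (chr17:29090729-29091028, plus strand) nor that of Cdkn2c (chr4:109666707-109667006, minus strand) held any of them, which says only that these letters are not in these 300 bases. Starts further downstream, where a gene has them, were not searched.
Cdkn1a: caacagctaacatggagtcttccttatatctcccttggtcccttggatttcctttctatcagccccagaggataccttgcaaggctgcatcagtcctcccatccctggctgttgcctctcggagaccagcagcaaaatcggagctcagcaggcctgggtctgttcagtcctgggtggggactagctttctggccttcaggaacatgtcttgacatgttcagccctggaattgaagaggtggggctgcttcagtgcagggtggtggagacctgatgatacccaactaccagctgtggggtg
Cdkn2c: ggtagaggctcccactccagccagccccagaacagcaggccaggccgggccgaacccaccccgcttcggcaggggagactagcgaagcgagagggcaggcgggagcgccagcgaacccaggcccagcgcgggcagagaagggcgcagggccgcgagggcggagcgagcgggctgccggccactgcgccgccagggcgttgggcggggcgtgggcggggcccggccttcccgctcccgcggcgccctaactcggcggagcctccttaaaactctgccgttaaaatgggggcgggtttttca

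Ccng2 stood beside Cdkn1a in size and direction. It encodes cyclin G2, an atypical cyclin that is known for high expression in cells that stop dividing rather than for driving the cycle. Its centred mean was 0.23 with the empty vector and -0.42 in the knockdown, a difference of -0.65 or 1.57-fold lower, from 37 probes on the plus strand of chromosome 5 (93696283 to 93705251). An absolute difference larger than that of Ccng2 was found for 106 transcript clusters, and the difference was -0.49 after subtraction of the median. The related Ccng1, a p53 target, had no row. The promoter of Ccng2 (chr5:93267323-93267622, plus strand) is shown because this gene and Cdkn1a are the members past 1.3-fold, and like that of Cdkn1a it held none of the letters searched.
Ccng2: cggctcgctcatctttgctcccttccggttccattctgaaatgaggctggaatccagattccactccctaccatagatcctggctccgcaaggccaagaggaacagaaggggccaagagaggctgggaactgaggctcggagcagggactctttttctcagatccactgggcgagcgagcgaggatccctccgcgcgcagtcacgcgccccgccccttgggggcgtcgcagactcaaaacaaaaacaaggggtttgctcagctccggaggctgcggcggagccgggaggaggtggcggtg

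The other 10 members with a row differed by 1.09- to 1.18-fold, and 7 of them, the row of Cdk4 included, were lower and 3 higher. The absolute log2 difference of each was between 0.13 and 0.23, below the median of 0.25 over all transcript clusters of the table. Before subtraction of the median difference of all transcript clusters, a jump thus separated Cdkn1a and Ccng2 from the rest. Their fold minus 1 (0.60 and 0.57) was 3.44 and 3.27 times that of the next member, Cdc25a (0.18). After the subtraction the gap was much narrower, with Cdkn1a at -0.52 and Ccng2 at -0.49. Cdc25a was then at 0.40 and Cdkn2c at 0.39, both past 1.3-fold on the higher side. The position of the members in the table is shown in the plot of all differences.

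**Figure D2:**
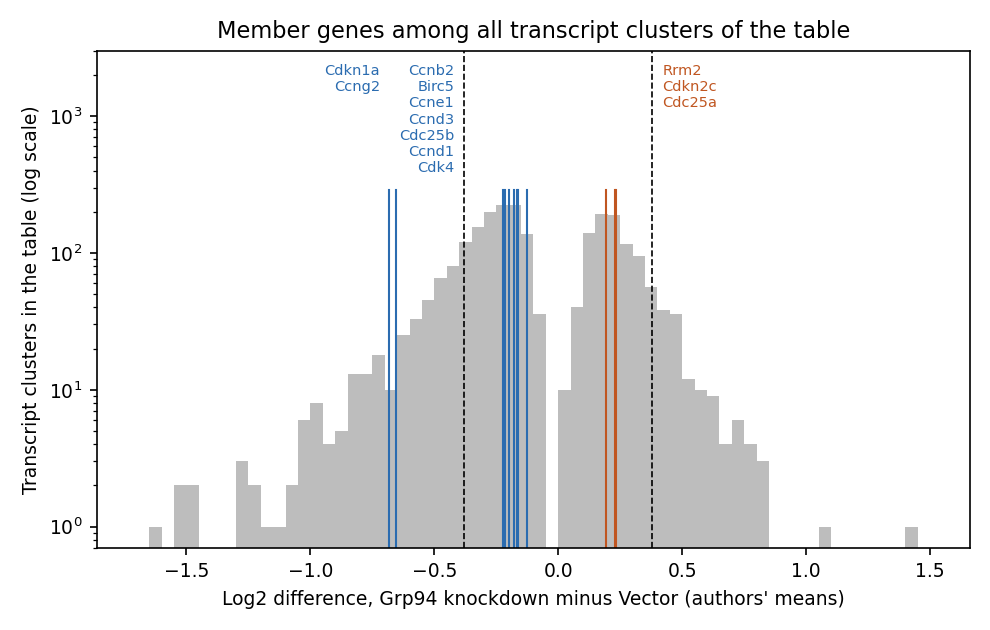
Number of transcript clusters (y axis, log scale) by log2 difference, knockdown minus empty vector (x axis), for all 2395 of the table in grey, with vertical lines for the 12 member genes (blue lower, orange higher) and dashed lines at 1.3-fold. Cdkn1a and Ccng2 lie beyond the dashed line on the lower side, and the other 10 lie between both dashed lines, where Cdkn2c and Cdc25a would be past the line on the higher side after subtraction of the median.

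Genes of the G1/S transition had a row in 6 of 24 cases, of which 4 were lower and 2 were higher, where 59.9% of all transcript clusters were lower. The lower ones were 3 cyclins and the row that carries the symbol of Cdk4. Ccne1, cyclin E1, the partner of Cdk2 at S phase entry, had a mean of 0.11 with the empty vector and -0.09 in the knockdown, a difference of -0.20 (chromosome 7, 38883003 to 38892553, 36 probes). Ccnd3, the D-type cyclin D3, had means of 0.09 and -0.09, a difference of -0.18 (chromosome 17, 47642080 to 47736638, 23 probes). Ccnd1, cyclin D1, through which growth factor signals reach the cycle, had means of 0.10 and -0.06, a difference of -0.16 (chromosome 7, 152115836 to 152125785, 28 probes). These cyclins belong to both classes that act in G1.

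Cdk4, the kinase partner of D-type cyclins, is named in a row with means of 0.04 and -0.08 and the smallest difference of all members, -0.13. Its transcript cluster (chromosome 10, 126504336 to 126507320, 29 probes) carries the symbols Tspan31 and Cdk4 and lies on the minus strand, which is that of Tspan31 in RefSeq, while Cdk4 lies on the plus strand. The value therefore goes by strand with Tspan31, and Cdk4 itself has no value that can be relied on. Without this row, 8 members were lower and 3 higher, and 3 of the 5 G1/S genes were lower with a median of -0.16. The differences of Ccnd1 and Cdk4 turned to 0.0038 and 0.039, that is to higher, when the median of -0.16 of all transcript clusters was subtracted, whereas Ccne1 and Ccnd3 stayed lower at -0.04 and -0.02.

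The members of this group that were higher were a phosphatase and an enzyme of nucleotide supply. Cdc25a, which removes inhibitory phosphates from CDKs at S phase entry, had means of -0.12 with the empty vector and 0.11 in the knockdown. Its difference of 0.23 was the highest of all members (chromosome 9, 109778083 to 109796394, 33 probes). Rrm2, the small subunit of ribonucleotide reductase, which makes the deoxynucleotides for DNA synthesis, had means of -0.09 and 0.10, a difference of 0.19 (chromosome 12, 25393119 to 25398973, 23 probes). Both genes remained higher after subtraction of the median, Cdc25a at 0.40, past 1.3-fold, and Rrm2 at 0.36.

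With 4 genes lower and 2 higher, the median of the 6 genes was -0.14, which turned to 0.021 after subtraction of the median of all transcript clusters. The remaining 18 genes of this group had no row. They were the cyclins Ccnd2 and Ccne2, the kinases Cdk2 and Cdk6, the factors E2f1, E2f2 and E2f8, the licensing factors Cdc6 and Cdt1, the helicase subunits Mcm2, Mcm3, Mcm4, Mcm5, Mcm6 and Mcm7, the replication clamp Pcna, and Rrm1 and Tyms of nucleotide supply. No gene of the E2F factors (0 of 3) and none of the licensing factors, helicase and clamp (0 of 9) was thus in the table, beside 5 of 9, the row of Cdk4 included, for the cyclins, CDKs and Cdc25a. With 10.3% of protein-coding genes having a row, an empty list of this size is not read as a result.

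The promoters of the higher pair are printed because they hold CCAAT boxes. The windows of Ccnb2 and Cdc25b, both lower, also held them, and that of Cdkn2c, which was higher, held none. That of Cdc25a (chr9:109875329-109875628, plus strand) has the CCAAT box in its reverse form (ATTGG) with first bases 131 and 81 bases before the start, and an overlapping run of E2F letters that begins 67 bases before it. That of Rrm2 (chr12:24708004-24708303, plus strand) has 1 CCAAT box, 50 bases before the start.
Cdc25a: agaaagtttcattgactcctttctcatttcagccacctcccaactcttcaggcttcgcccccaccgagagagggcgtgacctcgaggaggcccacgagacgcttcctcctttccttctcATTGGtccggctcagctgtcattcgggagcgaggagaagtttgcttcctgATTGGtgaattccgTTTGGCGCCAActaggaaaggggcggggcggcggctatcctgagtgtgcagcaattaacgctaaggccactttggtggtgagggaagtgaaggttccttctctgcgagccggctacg
Rrm2: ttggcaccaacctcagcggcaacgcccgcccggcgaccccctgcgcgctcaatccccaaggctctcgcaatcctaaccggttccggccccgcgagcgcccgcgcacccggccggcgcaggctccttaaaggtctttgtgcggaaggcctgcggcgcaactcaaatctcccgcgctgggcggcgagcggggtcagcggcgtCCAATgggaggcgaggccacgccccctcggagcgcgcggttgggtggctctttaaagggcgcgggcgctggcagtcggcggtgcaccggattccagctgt

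Mitotic genes had a row in 3 of 25 cases, and all 3 were lower, where 59.9% of all transcript clusters were lower. Ccnb2, cyclin B2, a partner of Cdk1 in mitosis, had a mean of 0.12 with the empty vector and -0.11 in the knockdown, a difference of -0.22 (chromosome 9, 70255496 to 70269361, 28 probes). Birc5, or survivin, a subunit of the chromosomal passenger complex and an inhibitor of apoptosis, had means of 0.12 and -0.09, a difference of -0.21 (chromosome 11, 117710551 to 117717057, 30 probes). Cdc25b, the phosphatase that activates Cdk1 at the start of mitosis, had means of 0.09 and -0.07, a difference of -0.17 (chromosome 2, 131012694 to 131024233, 34 probes). Their folds ran from 1.12 to 1.17. The median of the 3 genes was -0.21, and after subtraction of the median of all transcript clusters it was -0.049. Cdc25b was then at -0.00088, which is almost no difference, with Ccnb2 at -0.059 and Birc5 at -0.049.

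The other 22 mitotic members had no row. They were Ccna2, Ccnb1, Cdk1 and Cdc25c, the kinases Plk1, Aurka, Aurkb and Nek2, the spindle checkpoint genes Bub1, Bub1b, Ttk and Mad2l1 with the activator Cdc20, the kinesins Kif11, Kif20a and Kif23, the centromere proteins Cenpa, Cenpe and Cenpf, and Tpx2, Top2a and Mki67. Mitotic kinases (0 of 4) and spindle checkpoint genes with Cdc20 (0 of 5) thus had no row at all. Since 10.3% of protein-coding genes had a row, nothing is read from absence in lists this short. Mki67 and Top2a, in common use as marks of dividing cells, were among those without a value. The promoter of Ccnb2 (chr9:70421505-70421804, minus strand) is shown for the mitotic member of the largest difference. It held 3 CCAAT boxes with first bases 87, 54 and 21 bases before the start, and TTTGAA both 167 bases before it and at base 5 after it.
Ccnb2: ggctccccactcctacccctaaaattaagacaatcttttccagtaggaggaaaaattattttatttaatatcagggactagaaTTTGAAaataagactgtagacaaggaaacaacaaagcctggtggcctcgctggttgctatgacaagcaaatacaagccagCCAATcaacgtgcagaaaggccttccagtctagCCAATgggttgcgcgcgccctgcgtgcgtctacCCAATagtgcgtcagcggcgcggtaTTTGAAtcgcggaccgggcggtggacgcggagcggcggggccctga

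**Figure D3:**
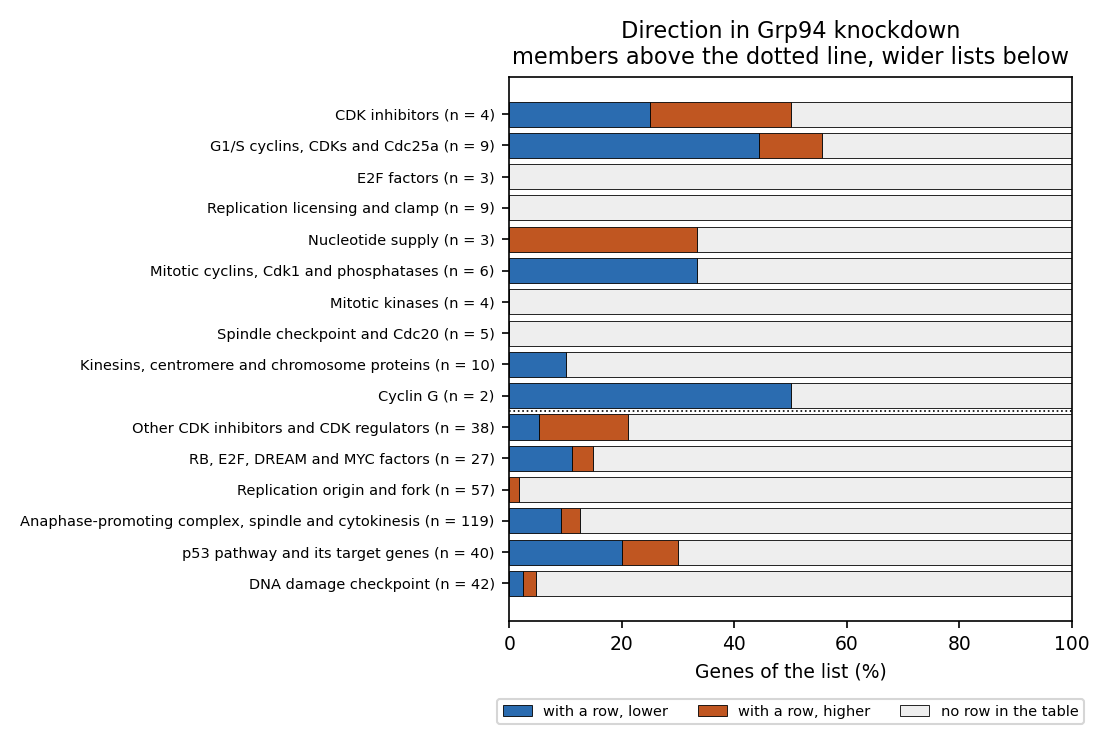
Share of genes (x axis, %) of each list that had a row and were lower (blue) or higher (orange) in Grp94 knockdown, or had no row (grey), for the 10 lists of members above the dotted line and 6 wider lists below it. E2F factors, replication licensing, mitotic kinases and spindle checkpoint genes have no coloured part, and the p53 list has a row for 30% of its genes. Of all protein-coding genes, 10.3% had a row.

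Promoters of the members were compared with all promoters of the RefSeq table through the most upstream start of each gene. A window was found for 45 of the 55 members and for 11 of the 12 with a row, Ccnd1 being without one. The CCAAT box, in either strand, was in 32 of the 45 windows (71.1%) and in 38.0% of all 27025 genes. Among the 11 members with a row it was in 4 (36.4%), namely Ccnb2, Cdc25a, Cdc25b and Rrm2, of which Ccnb2 and Cdc25b were lower and Cdc25a and Rrm2 higher. The cell cycle homology region was in 15 of 45 member windows (33.3%), in 1 of the 11 and in 18.2% of all genes. E2F letters were in 12 of 45 (26.7%), again in 1 of the 11, and in 3.91% of all genes. The core of the hypoxia response element (ACGTG, either strand) was in 14 of 45 (31.1%), in 4 of the 11 (36.4%) and in 19.6% of all genes. The members with that core and a row were Ccnb2, Ccne1, Cdc25b and Cdk4, and Cdk4 held it as the palindrome CACGTG at 4 places. These shares describe letters in a window and not binding, and were not tested.

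Beyond the members, 6 wider lists of 323 genes covered the rest of the cell cycle machinery and the p53 pathway. Of these genes 42 had a row, 25 lower and 17 higher, and after subtraction of the median of all transcript clusters the split was 17 lower and 25 higher. Past 1.3-fold, 6 genes were lower and 0 were higher, where 16.1% and 6.26% of all transcript clusters were. This count turned with the zero point, since 2 genes were lower and 9 higher past 1.3-fold after the subtraction. Of 57 genes of replication origins and forks, only the nuclease Dna2 had a row, with a difference of 0.10. Of 42 DNA damage checkpoint genes, the exonuclease Exo1 (0.16) and Fancd2 (-0.10), a protein of interstrand crosslink repair, had a row, and Fancd2 turned to 0.064 after subtraction of the median.

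Other CDKs, cyclins and CDK regulators had a row in 8 of 38 cases, of which 2 were lower and 6 higher. The split was 1 lower and 7 higher with the other row of Cdk17, and 0 lower and 8 higher when the median was subtracted as well. One of the higher genes, Ccni, is named in a row on chromosome 14, whereas its gene lies on chromosome 5 in RefSeq, so that value is uncertain. Of the 5 largest differences, 4 were those of genes that act in transcription rather than in the cell cycle. Ccnt2, a cyclin partner of Cdk9 in the elongation factor P-TEFb, had a difference of 0.31, and Cdk9 itself one of 0.22. Cdk8, a kinase of the Mediator complex, had a difference of 0.30, and Cdk13, a kinase of RNA polymerase II, one of 0.23. After subtraction of the median, these 4 genes were past 1.3-fold on the higher side, from 0.39 to 0.48. The row taken for Cdk17 (-0.25) is shared with Elk3 and lies on the strand of Elk3, so it gives no value that can be relied on for Cdk17. The other row of Cdk17 had 0.24 and lies opposite to Elk3. The other lower gene, named after its values were seen, was Cdkn3, a CDK-associated phosphatase, with -0.15, and it turned to higher after subtraction of the median.

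Factors around RB, E2F and MYC had a row in 4 of 27 cases. Rbbp4, a histone-binding partner of RB, is named with Sync in a row of -0.39, and Rbl2, an RB relative of quiescent cells, with Aktip in a row of -0.18. Both rows lie on the strand of the partner (Sync and Aktip) and opposite to that of Rbbp4 and Rbl2 in RefSeq, so they give no value that can be relied on for either. The row of Rbbp4 was at -0.23, no longer past 1.3-fold, after subtraction of the median. Mxi1, an antagonist of MYC, had a difference of -0.27, and E2f7, a repressor among the E2F factors, one of 0.12. Genes of the anaphase-promoting complex, spindle and cytokinesis had a row in 15 of 119 cases, 11 lower and 4 higher, with a median of -0.13, and subtraction of the median of all transcript clusters turned this to 6 lower and 9 higher with a median of 0.03. The largest were Cdc14b (-0.36), a phosphatase, Cenpt (-0.29), a kinetochore protein, Haus4 (-0.25), of the augmin complex, Nek9 (0.22), a mitotic kinase, and Nusap1 (-0.22, shared with Oip5), a spindle protein. After the subtraction Nek9 was at 0.39, past 1.3-fold on the higher side.

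The p53 pathway was examined because Cdkn1a is one of its best known targets. Of 40 genes, 12 had a row, 8 lower and 4 higher, with a median of -0.29, and 5 genes were lower past 1.3-fold. Of all transcript clusters, 59.9% were lower and 16.1% were lower past 1.3-fold, so nothing is read from the count of directions. After subtraction of the median of all transcript clusters, 7 were lower and 5 higher, the median of the list was -0.13, and 2 genes were lower and 4 higher past 1.3-fold. The 5 lower genes were Ephx1 (-1.25), Ddit4 (-0.73), Plk3 (-0.49), Trp53inp1 (-0.48) and Sesn2 (-0.47), of which Ephx1 (-1.08) and Ddit4 (-0.56) stayed past 1.3-fold after the subtraction, while Plk3 (-0.33), Trp53inp1 (-0.31) and Sesn2 (-0.31) did not. As background, several of them answer to other factors too, since Ephx1 is a detoxifying enzyme of the NRF2 response, Ddit4 is induced by low oxygen and by amino acid stress, and Sesn2 is induced by ATF4. The 4 higher genes, named after their values were seen, were Zmat3 (0.35, shared with 4930429B21Rik), Aen (0.34), Gadd45b (0.28) and Trp53 (0.22). After the subtraction they were past 1.3-fold, at 0.52, 0.51, 0.44 and 0.38. The row of Zmat3 lies on the strand of 4930429B21Rik, and the strand of Zmat3 was not among those read from RefSeq. It therefore gives no value that can be relied on for Zmat3. The row of Trp53 has no chromosome or strand given, so it could not be compared with the position of the gene. The apoptotic target Bax, also named afterwards, had -0.12 and turned to higher after the subtraction. Mdm2 and Btg2, other p53 targets, had no row. Whether p53 or any other factor had a part in the difference of Cdkn1a was not tested.

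**Figure D4:**
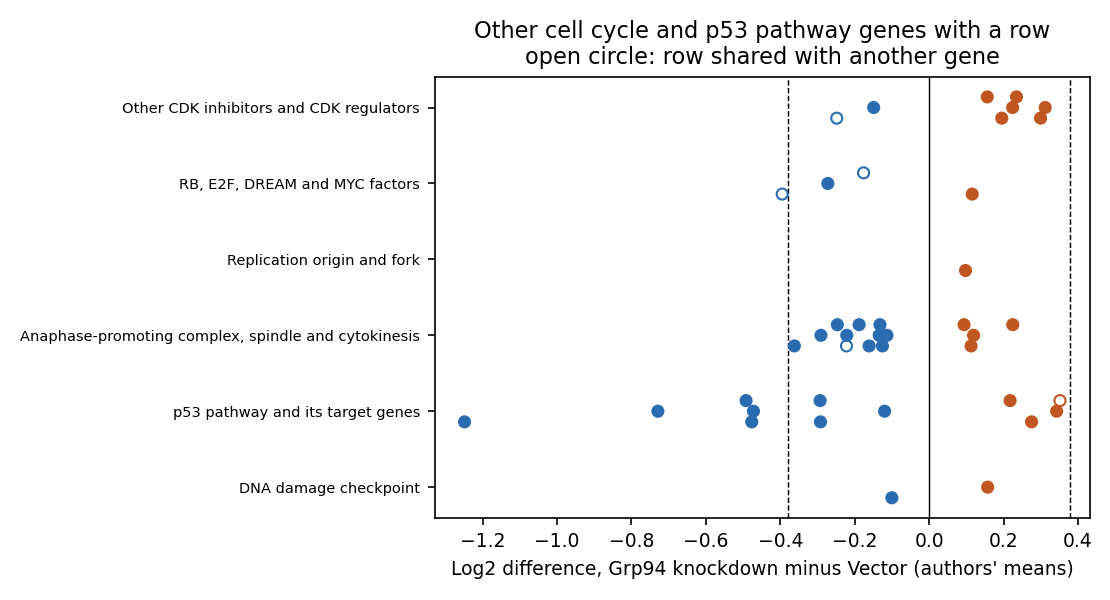
Log2 difference, knockdown minus empty vector (x axis), of the 42 genes of 6 wider lists that had a row, 1 circle per gene, blue for lower and orange for higher, open where the row is shared with another gene, with dashed lines at 1.3-fold. In the p53 list 5 genes lie beyond the dashed line on the lower side, from -0.47 to -1.25, and no gene of these lists lies beyond it on the higher side, whereas after subtraction of the median of all transcript clusters 2 genes of the p53 list would lie beyond it on the lower side and 9 genes of all lists on the higher side.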

How the data were processed

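The authors measured total RNA of transfected N2a cells on 8 Affymetrix Mouse Gene 1.0 ST arrays, 4 per group by the titles in the labels, and analysed the signals in Agilent GeneSpring GX. Genes under the 20th percentile of expression were excluded by the authors. The deposited table holds the authors' log2 values, centred for each transcript cluster and pooled to 1 value per group. Probe summarization, normalization between arrays, GeneSpring version and genome build are not given in the sources used here. The table also holds the authors' fold changes and p-values, which were not used, and q-values deposited with them, which served only to find the limit of 0.01 on the rows.

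Differences were computed as the knockdown value minus the empty vector value, and counted past 1.3-fold without a test, because no spread between arrays can be had from 1 value per group. Of several rows of a gene, that of the largest absolute difference was taken. Of each wider list the 5 largest absolute differences were named, as were all members with a row and Hsp90b1. Members were also sought by Entrez identifier and by synonym, which gave 0 further rows. The strand and chromosome of the rows of members and wider lists were compared with the RefSeq gene where both were known. The strand could not be compared for Ccnd1, Cdk17, Tacc1, Trp53, Trp53inp1, Zmat3, Fancd2 and Exo1, nor the chromosome for Trp53. Rows of markers were not compared. The members, lists and tests were chosen with earlier results of these data known. Promoters were read from a RefSeq table of GRCm38.p6. Python 3.11.15, numpy 2.4.6, pandas 2.3.3 and matplotlib 3.10.9 were used, and the scripts were tested on simulated data.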

Additional observations from a re-analysis of the deposited data

How the results depend on the processing

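No paired analysis was possible because the table gives 1 value per group, and for the same reason no array could be left out. The 2 members past 1.3-fold, Cdkn1a and Ccng2, stayed the only ones at thresholds of 1.2 and 1.5 and without rows of several symbols. Subtraction of the median of all transcript clusters (-0.16) moved the zero point of every gene. It gave 5 higher members in place of 3, with 7 lower in place of 9, and 2 higher members past 1.3-fold, Cdkn2c and Cdc25a, in place of 0. The median of CDK inhibitors moved from -0.23 to -0.062 and that of mitotic genes from -0.21 to -0.049, while that of G1/S genes turned from -0.14 to 0.021. Of the 35 genes named by rule (Hsp90b1, members with a row and up to 5 of each wider list), 3 changed direction, namely Ccnd1 (0.0038), Cdk4 (0.039) and Fancd2 (0.064). Cdkn3 (0.016) and Bax (0.045), named afterwards, and the marker Th (0.042) turned to higher too and are not in that count. In the wider lists 17 genes were lower and 25 higher, in place of 25 and 17, and past 1.3-fold 2 were lower and 9 higher, in place of 6 and 0. The listed rows are a selected part of those measured, so this zero point is not known to be nearer the true one. Without rows of several symbols, 8 members were lower and 3 higher, and the median of G1/S genes moved to -0.16. The same values came from a setting chosen after seeing the data. It left out rows on the opposite strand or on another chromosome than the named gene in RefSeq (Cdk4, Rbl2, Rbbp4 and Ccni). In that setting 23 wider genes were lower and 16 higher, 5 of them lower past 1.3-fold. Rows whose strand could not be compared were kept, among them that of Cdk17 on the strand of Elk3 and that of Zmat3 on the strand of 4930429B21Rik. The past-fold counts of the wider lists, and the other row of Cdk17 (24 lower, 18 higher), were also added then. For the promoters, the CCAAT box was in 71.1% of member windows also without the bases after the start, the E2F letters were in 9 of 45, and the cell cycle homology region was in 17.8%, close to the 16.3% of all genes.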

Other observations

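Genes that mark the neuroblastoma origin of the cells were also in the table, in 6 of 15 cases, of which 3 were lower and 3 higher. Dbh, which makes noradrenaline from dopamine, had a difference of 0.49 or 1.41-fold higher, and the sympathetic lineage factors Hand2 and Isl1 had 0.26 and 0.24. Elavl4 (-0.22), a neuronal RNA-binding protein, Stmn2 (-0.17), a regulator of microtubules, and Th (-0.12), the first enzyme of catecholamine synthesis, were lower, and Th turned to higher after subtraction of the median of all transcript clusters (2 lower and 4 higher in all, with Dbh, Hand2 and Isl1 past 1.3-fold). Of 12 markers of fibroblasts, glia, blood and vessels, 0 had a row, beside 10.3% of protein-coding genes. Because the values are centred, presence in the table cannot show whether a marker was expressed at a high or a low level.

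Cdk17, a CDK relative of the PCTAIRE group, was the gene of the cell cycle lists with more than 1 row. Of its 2 rows, both shared with Elk3, one had a difference of -0.25 and the other 0.24. The row of -0.25 lies on the strand of Elk3 in RefSeq and goes by strand with that gene, while the row of 0.24 lies opposite to Elk3. The strand of Cdk17 was not among those read from RefSeq, so the direction of Cdk17 cannot be given.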
